A study of Arabidopsis thaliana with 6 samples.

Results

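The Aux/IAA repressors and the auxin-conjugating GH3 enzymes of *Arabidopsis thaliana* were examined as 28 Aux/IAA and 8 GH3 genes, 36 of the 29004 genes represented on the array. A gene was taken as a member when a probe carried its locus code, and every one of the 36 loci had at least 1 probe. Seedlings of the Col background, 3 days old and grown in continuous white light on MS medium free of sucrose, were wild type or *hy5* (SALK_096651). The line SALK_096651 is a single insertion allele of *HY5*, so no second allele was measured. Total RNA of each genotype was labeled with Cy3 and hybridized to 3 one-color Agilent arrays. The comparison asks which of these transcripts differ when HY5, a bZIP factor that promotes photomorphogenesis, is missing.

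Auxin acts by removing repressors. Aux/IAA proteins bind auxin response factors (ARFs) on the promoters of auxin-responsive genes and recruit TOPLESS co-repressors, which keeps those genes silent. Auxin joins the F-box receptors TIR1 and AFB to a short degron in the Aux/IAA protein, and the repressor is then ubiquitinated and degraded. Many Aux/IAA genes and many GH3 genes are themselves switched on by auxin, so both families feed back on the signal. The GH3 enzymes studied here attach amino acids to indole-3-acetic acid and so lower the pool of free auxin. In seedlings, this pathway drives hypocotyl elongation, tropic bending and root branching, and light restrains the first of these.

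Signals are given as intensity divided by the 75th percentile of the same array, so a value of 1 equals that percentile. In raw intensity, that percentile lay at 487 to 558 for wild type and at 981 to 1057 for *hy5*, and every change below is relative to it. Before scaling, 10 spike-in control probes had *hy5* over wild type ratios of 0.62 to 1.01, with a median of 0.66. The reason for the opposite directions was not tested, and changes relative to the spike-ins would differ from those given here. To enter the test, a probe had to exceed background clearly in each of the 3 arrays of either genotype, and the brightest such probe stood for its gene, which left 21590 genes. Signals of different probes are not comparable with each other, because probes differ in how strongly they hybridize. Differences are log2 values, *hy5* minus wild type, with limma standard errors and p-values adjusted over all 21590 genes. A gene is said to rise or fall at an adjusted p under 0.05, and is counted as called when the change was also at least 2-fold. *HY5* itself (AT5G11260) gave 1.32, 1.38 and 1.24 on the wild-type arrays and 0.0217, 0.0283 and 0.0169 on the *hy5* arrays. Where its probe lies relative to the insertion is not given in the sources used here. The 2 genotypes were on separate slides, so slide and genotype cannot be told apart. No source used here states that the replicates were separate plant samples, and the p-values then measure only the spread between these arrays. As in any bulk sample, fewer cells of a type and less RNA per cell cannot be told apart.

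Among the 36 members, 6 were called. *IAA19*, *IAA29*, *IAA32*, *IAA34* and *GH3.3* were higher in *hy5*, and *GH3.9* was lower. The largest difference was that of *IAA32*, which was 6.01-fold higher in *hy5*. 35 members were tested, and *GH3.4* was not, because none of the arrays measured it well above background. The 5 members called higher are 14.3% of those tested, against 6.55% of all genes tested. The 1 member called lower is 2.86%, against 4.84% of all genes tested. Without a fold limit, 15 members rose and 5 fell, which together are 57.1% of the members, near the 52.8% of all genes tested that passed at any fold. The *hy5* arrays lay wholly above the wild-type arrays for 16 members and wholly below for 6, together 62.9%, against 30.8%, 31.7% and 62.5% of all genes. A difference above 0 was seen in 26 members, or 74.3%, against 49.7% of all genes. The rises were 42.9% of the members, where 26.3% of all genes rose, and the falls were 14.3%, where 26.6% of all genes fell. The median log2 difference of the tested members was 0.21, and that of all genes was -0.0044. *IAA6*, *IAA30* and *IAA33* passed the filter through the *hy5* arrays alone, and in wild type each was well above background on 1 array of 3. Among the 32 members well above background on all 6 arrays, 14 rose and 5 fell. For all 28 tested Aux/IAA genes, without that restriction, the main setting gave 10 rises and 4 falls. With normexp background correction, an alternative that starts from the median spot signal, adds a fixed offset to every spot and moves the median of all genes to -0.20, 8 Aux/IAA genes rose and 10 fell. After the methods' t-test with Benjamini-Hochberg adjustment, 5 rose and 1 fell. The GH3 genes had 5 rises and 1 fall with normexp, as in the main setting. Shares of all genes at any fold are given for the main setting only. Any-fold counts from alternative settings, here and below, thus have no such share beside them. With the 2-fold limit, normexp called 529 of all genes higher and 724 lower, and the methods' t-test after Benjamini-Hochberg adjustment called 868 and 851.

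**Figure D1:**
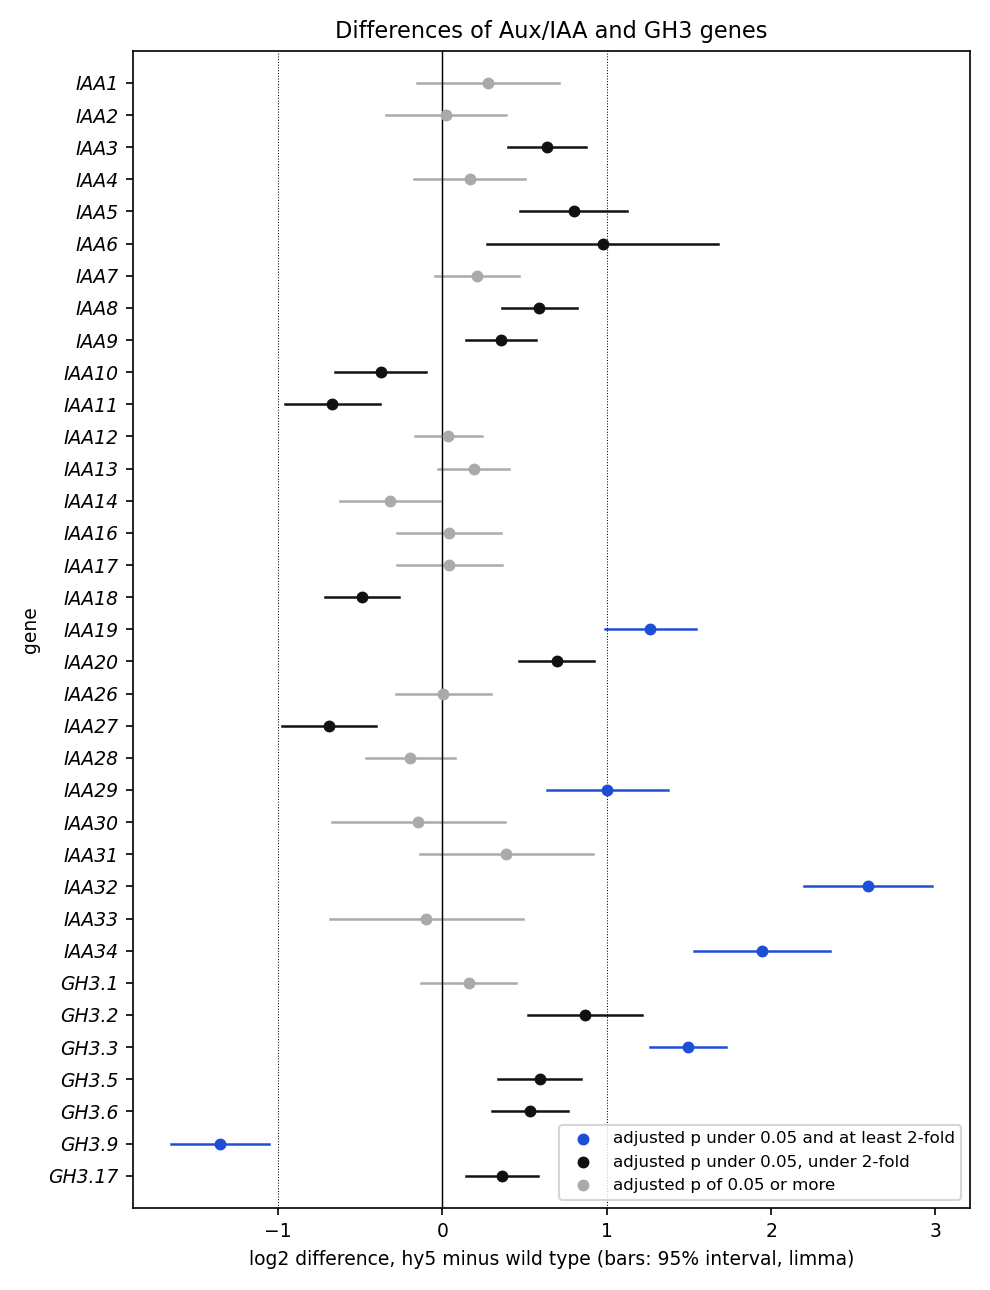
Log2 difference (*hy5* minus wild type, horizontal axis) of the 35 tested members, one per row, with the 95% interval from limma as a bar and dotted lines at 2-fold. The 6 called members are in blue, with *IAA32* at 2.59 at one end and *GH3.9* at -1.35 at the other.

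Markers of other tissues or stages moved with genotype. Over all genes tested, 6.55% were called higher in *hy5*, and at any fold 26.3% rose and 26.6% fell. Of 12 seed genes (cruciferins, 2S albumins, oleosins, EM proteins and *ABI3*), 11 were called higher in *hy5*, and the summed signal of the list was 7.97 to 14.6 on the *hy5* arrays against 0.945 to 1.83 on the wild-type arrays. Of these 12, 8 were well above background on all 6 arrays, and all 8 rose in the setting that required this. The others, *CRU2*, *OLEO2*, *SESA1* and *SESA4*, entered the test through the *hy5* arrays alone, where their mean was higher. All of these but *SESA4* are among the 11 called. At any fold, 9 seed genes rose and 2 fell with normexp, and 3 rose by the methods' t-test after Benjamini-Hochberg adjustment. All 5 green-tissue genes fell, none by 2-fold and none after quantile normalization, with sums of 1547 to 1705 in *hy5* and 2038 to 2396 in wild type. Of 9 root genes, *COBL9* (0.58), *EXPA7* (0.66), *EXPA18* (0.90) and *PRP3* (0.52) rose and *SCR* (-0.62) fell. The sums overlapped, at 19.3 to 22.8 in *hy5* and 19.1 to 22.3 in wild type. Such sums weigh bright probes most, and *SCR* was the brightest of this list, with a mean of 10.1 in wild type and 6.57 in *hy5*. The overlap of the sums therefore does not show that the single root genes were unchanged. No marker on these lists was below background on every array. Their part in the member differences was not tested.

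The first group holds *IAA1* to *IAA6* and *IAA19* (AT3G15540), short repressors known as early auxin-induced genes. All 7 had a difference above 0 in the main setting, while *IAA2* went below 0 with quantile normalization, with cyclic loess, without wild type replicate 1 and without *hy5* replicate 1, and *IAA1*, *IAA5* and *IAA6* went below 0 with normexp. *IAA3*, *IAA5*, *IAA6* and *IAA19* rose, 4 of the 7 or 57.1%, where 26.3% of all genes tested rose. Of these, *IAA6* entered the test through the *hy5* arrays alone. *IAA19*, also known as MASSUGU 2, is a repressor of ARF7 in the tropic bending of the hypocotyl. Its signal was 0.15, 0.182 and 0.188 on the wild-type arrays and 0.452, 0.408 and 0.387 on the *hy5* arrays. The lowest *hy5* value was thus above the highest wild-type value, and the gene was 2.41-fold higher (log2 difference 1.27, standard error 0.118, limma adjusted p = 0.000171). With normexp, the log2 difference of *IAA19* was 0.79 and no longer reached 2-fold.

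*IAA3* (AT1G04240), named SHORT HYPOCOTYL 2 after the phenotype of its gain-of-function mutant, rose from 0.617, 0.644 and 0.528 in wild type to 0.917, 0.906 and 0.951 in *hy5*. The *hy5* arrays were all above the wild-type arrays, by 0.64 on the log2 scale (limma adjusted p = 0.00175, standard error 0.102), which is under 2-fold. *IAA5* (AT1G15580) rose by 0.80 and *IAA6* (AT1G52830) by 0.98 on the log2 scale. The value of *IAA6* is uncertain, since in wild type it was well above background on 1 array of 3 and it entered the test through the *hy5* arrays, where it is higher. With normexp both changed sign, to -0.38 and -0.53, and both passed the test in that direction. *IAA6* also passed 2-fold with quantile normalization (1.08), with cyclic loess (1.27) and, at 1.05, 1.23 and 1.18, without wild type replicate 2, wild type replicate 3 or *hy5* replicate 3. It did not pass the test without *hy5* replicate 1 or *hy5* replicate 2 (limma adjusted p = 0.0875 and 0.0949), nor with no filter on dim probes (limma adjusted p = 0.0628). By the methods' t-test *IAA6* did not pass either (unadjusted p = 0.0537).

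*IAA1*, *IAA2* and *IAA4* did not pass the test, and their arrays overlapped between genotypes. *IAA2* (AT3G23030) had a signal of 3.28, 3.9 and 3.45 in wild type and 4.43, 3.54 and 2.95 in *hy5*. The *hy5* arrays thus spanned the whole wild-type range, and the 95% interval of its log2 difference ran from -0.34 to 0.39. For *IAA1* the interval was -0.15 to 0.71 and for *IAA4* it was -0.17 to 0.51. Without *hy5* replicate 3, *IAA1* had 0.49 and passed the test (limma adjusted p = 0.0204). Smaller changes of these 3 genes were not detectable with 3 arrays a genotype.

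**Figure D2:**
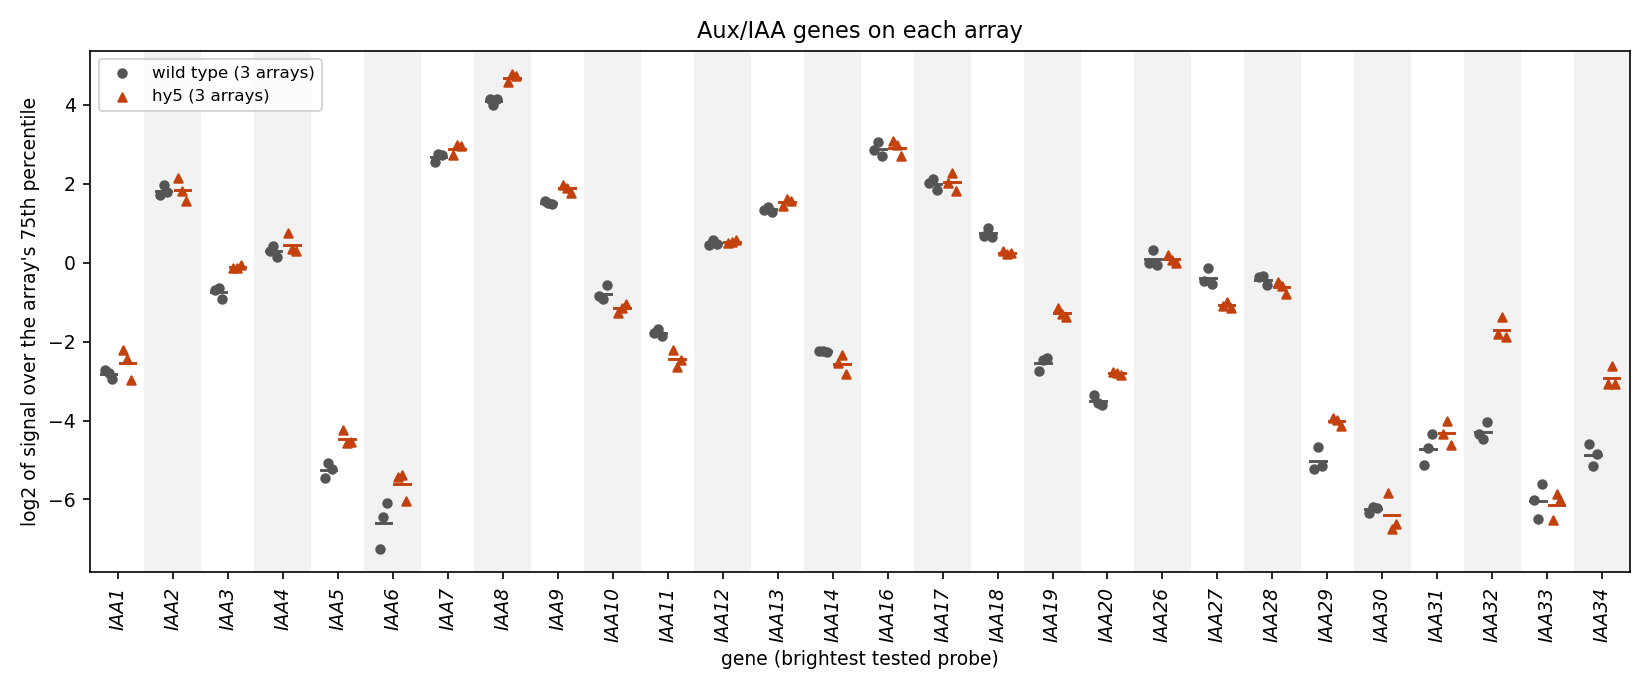
Log2 signal over the 75th percentile (vertical axis) of the 28 Aux/IAA genes (horizontal axis), with 1 point for each array, wild type as circles, *hy5* as triangles and the mean of 3 arrays as a line. For *IAA19*, *IAA29*, *IAA32* and *IAA34* every triangle lies above every circle, while for *IAA2*, *IAA16* and *IAA17* they overlap.

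The group of *IAA7* (AT3G23050), *IAA14* (AT4G14550), *IAA16* and *IAA17* holds repressors whose stabilized forms cause auxin resistance (*axr2*, *axr3*) and loss of lateral roots (*solitary root*). None of the 4 passed the test at the probe that represents the gene, where 52.8% of all genes tested passed. *IAA7* had signals of 5.82, 6.74 and 6.65 in wild type and 6.63, 7.86 and 7.8 in *hy5* (log2 difference 0.21, 95% interval -0.04 to 0.47). *IAA16* and *IAA17* (AT1G04250) had intervals of -0.28 to 0.35 and -0.28 to 0.37. None of these intervals reaches 2-fold in either direction. *IAA14* ranged from 0.206 to 0.214 on wild-type arrays and from 0.142 to 0.198 on *hy5* arrays, without overlap (log2 difference -0.32, limma adjusted p = 0.0723). Its second probe had a log2 difference of -0.71, with a limma adjusted p of 0.00499 over all tested probes, and the mean of both probes passed too (limma adjusted p = 0.0136). At the brightest probe it passed narrowly with an intensity trend (limma adjusted p = 0.0492) and with the filter on all 6 arrays (limma adjusted p = 0.0498). It also passed with normexp (-0.46) and without *hy5* replicate 2 (-0.43).

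The longer repressors *IAA8* (AT2G22670), *IAA9* and *IAA27* all passed the test, as did 52.8% of all genes tested, and in both directions. *IAA8* rose at each of its 3 probes, and at the brightest the signal was 17.7, 15.9 and 17.6 in wild type and 23.7, 27.2 and 26.3 in *hy5* (1.51-fold, limma adjusted p = 0.00203). *IAA9* (AT5G65670), whose counterpart in tomato restrains leaf form and fruit set, rose by 0.36 on the log2 scale (limma adjusted p = 0.0127, standard error 0.0909). *IAA27* (AT4G29080), first described as a phytochrome-associated protein, went the other way. It was 0.721, 0.903 and 0.687 in wild type and 0.471, 0.499 and 0.454 in *hy5*, 1.61-fold lower (limma adjusted p = 0.00272). Every *hy5* value of *IAA27* was below every wild-type value.

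Of *IAA10* to *IAA13*, the first pair fell, as did 26.6% of all genes tested, and the second pair did not pass the test. *IAA11* (AT4G28640) had signals of 0.292, 0.31 and 0.278 in wild type against 0.215, 0.161 and 0.182 in *hy5*, a log2 difference of -0.67 (limma adjusted p = 0.00322). *IAA10* (AT1G04100) fell by a log2 difference of -0.38 (limma adjusted p = 0.0319), and did not pass without wild type replicate 1, wild type replicate 3, *hy5* replicate 1 or *hy5* replicate 2 (limma adjusted p of 0.0525 to 0.0898). Nor did *IAA10* pass with no filter on dim probes (limma adjusted p = 0.0582) or by the methods' t-test (unadjusted p = 0.0787). *IAA12* (AT1G04550), known as BODENLOS and as the partner of ARF5 in embryonic root formation, lay within a 95% interval of -0.16 to 0.24. *IAA13* (AT2G33310) had 0.19, with an interval of -0.02 to 0.41. Neither interval reaches 2-fold.

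*IAA18* (AT1G51950), *IAA26* (AT3G16500), *IAA28* and *IAA29* gave 1 rise and 1 fall, near the 52.8% of all genes tested that passed at any fold. *IAA29* (AT4G32280), a gene known to be induced by shade and by PIF factors, had a signal of 0.0267, 0.0395 and 0.0281 in wild type and 0.0659, 0.0634 and 0.0572 in *hy5*. The genotypes did not overlap, and the gene was 2.01-fold higher (log2 difference 1.00, standard error 0.158, limma adjusted p = 0.00161). This lies just past the 2-fold limit, and *IAA29* fell short of it with median scaling (0.99), cyclic loess (0.94) and the methods' t-test (0.98). It also fell short, at 0.90 to 0.99, without wild type replicate 1, wild type replicate 3, *hy5* replicate 1 or *hy5* replicate 2. With normexp its difference was -0.19. *IAA18* fell from a range of 1.58 to 1.85 in wild type down to one of 1.16 to 1.23 for *hy5* at its brightest probe (log2 difference -0.49, limma adjusted p = 0.00443), while its other 2 probes had -0.26 and -0.20 and did not pass. *IAA26* (log2 difference 0.0072) and *IAA28* (-0.19) did not pass either.

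The last group, *IAA20* and *IAA30* to *IAA34*, holds Aux/IAA proteins in which the degron is missing or altered, and which are therefore not degraded by auxin in the usual way. It held the 2 largest differences of all members. *IAA32* (AT2G01200) had a signal of 0.0493, 0.0451 and 0.0606 on the wild-type arrays and 0.285, 0.383 and 0.269 on the *hy5* arrays. The lowest *hy5* value was several times the highest wild-type value, and the log2 difference was 2.59 (standard error 0.167, limma adjusted p = 4.38e-05). *IAA34* (AT1G15050) followed the same pattern from 0.041, 0.0281 and 0.0346 to 0.118, 0.161 and 0.119, without overlap, 3.84-fold higher (log2 difference 1.94, standard error 0.177, limma adjusted p = 0.000154). IAA32 and IAA34 are known as targets of the kinase fragment of TMK1, which stabilizes them at the inner side of the apical hook. For both, each of the 6 arrays was well above background. With normexp *IAA32* had a log2 difference of 1.15 and *IAA34* of 0.44, the latter under 2-fold. By the methods' t-test, both passed unadjusted and missed the threshold after Benjamini-Hochberg adjustment (0.0562 and 0.0541).

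*IAA20* (AT2G46990) rose by 0.70 on the log2 scale (limma adjusted p = 0.000978, standard error 0.0978), from a range of 0.0821 to 0.0975 in wild type up to one of 0.138 to 0.147 for *hy5*. With normexp its difference was -0.0020. *IAA30* (AT3G62100), *IAA31* and *IAA33* did not pass the test and overlapped between genotypes. Their 95% intervals were wide, at -0.67 to 0.38 for *IAA30*, -0.14 to 0.92 for *IAA31* and -0.68 to 0.49 for *IAA33*. Without *hy5* replicate 1, *IAA30* had -0.43 and passed the test (limma adjusted p = 0.0133), and with normexp all 3 fell.

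No Aux/IAA gene was called lower by limma, where 4.84% of all genes tested were. At an adjusted p under 0.05 there were 4 falls among the 28, where 26.6% of all genes tested fell. At an unadjusted p under 0.05, 5 were lower, where 6425 of the 21590 genes tested were. The methods' t-test with its 2-fold limit also called 0 lower, with or without adjustment. It called 3 Aux/IAA genes higher unadjusted and 1 after Benjamini-Hochberg adjustment, against 4 by limma. Those 4 are 14.3% of the 28 tested, where limma called 6.55% of all genes tested higher. The median log2 difference of the 28 Aux/IAA genes was 0.18, and it was -0.012 with normexp and 0.11 without *hy5* replicate 1.

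Of the 7 tested GH3 genes, 5 rose and 1 fell, with a median log2 difference of 0.53. These are 71.4% and 14.3%, where 26.3% of all genes tested rose and 26.6% fell. *GH3.3* (AT2G23170), an auxin-inducible member, rose most. With *GH3.5* and *GH3.6* it controls adventitious rooting in seedlings, where the enzymes also affect jasmonate levels. Its signal was 3.57, 3.25 and 3.79 in wild type and 9.41, 10.6 and 9.77 in *hy5*. The genotypes were far apart, by 1.49 on the log2 scale (2.81-fold, standard error 0.0993, limma adjusted p = 4.98e-05). *GH3.3* stayed called in all 18 alternatives tried, between 1.43 and 1.54.

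*GH3.5* and *GH3.6* (AT5G54510) rose less. *GH3.5* (AT4G27260), whose enzyme also acts on salicylic acid, had signals of 3.25, 2.85 and 3.48 in wild type and 4.45, 5.01 and 4.94 in *hy5* (1.51-fold, limma adjusted p = 0.00307), and its second probe had a log2 difference of 0.63. *GH3.6*, named DWARF IN LIGHT 1 after the short hypocotyl seen when it is overexpressed, went from 4.39, 3.93 and 4.17 to 5.54, 6.02 and 6.51 (1.45-fold, limma adjusted p = 0.00335). In both genes all *hy5* arrays exceeded all wild-type arrays.

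*GH3.2* (AT4G37390), known as YADOKARI 1, rose from 0.143, 0.156 and 0.209 to 0.313, 0.316 and 0.284 (log2 difference 0.87, standard error 0.149, limma adjusted p = 0.00235). Without wild type replicate 3 it reached 1.03 and was called. *GH3.1* (AT2G14960) had 0.16 and did not pass the test (limma adjusted p = 0.307, 95% interval -0.13 to 0.45). *GH3.17* (AT1G28130), which conjugates auxin to glutamate, rose by 0.36 (standard error 0.0943, limma adjusted p = 0.0139). *GH3.4* was between 0.0024 and 0.00554 on wild-type arrays and between 0.00101 and 0.00119 on *hy5* arrays, none of them well above background, so no fold is given.

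*GH3.9* (AT2G47750), a family member linked to primary root growth, was the only member called lower. Its signal was 0.854, 0.778 and 0.941 in wild type and 0.289, 0.347 and 0.375 in *hy5*. Each *hy5* array was below each wild-type array, 2.55-fold on average (log2 difference -1.35, standard error 0.127, limma adjusted p = 0.000176). Its second probe gave the same direction, with 0.207, 0.181 and 0.176 in wild type and 0.0633, 0.0607 and 0.0716 in *hy5*, a log2 difference of -1.53. *GH3.9* stayed called in all 18 alternatives, between -1.44 and -1.13.

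**Figure D3:**
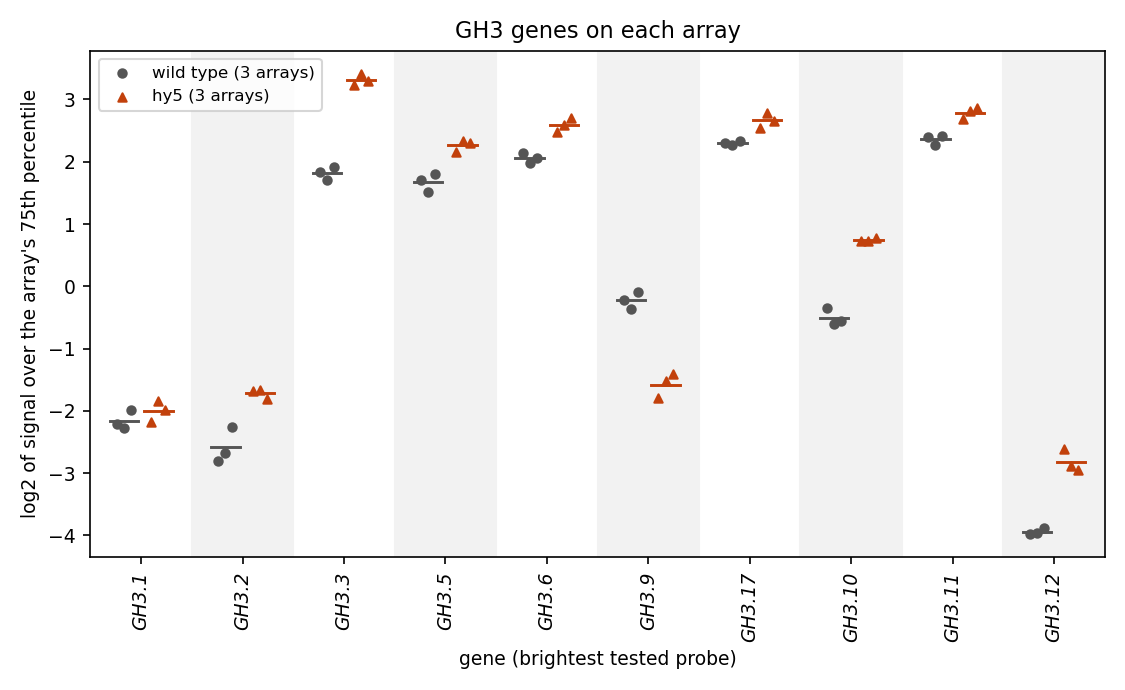
Log2 signal over the 75th percentile (vertical axis) of the 7 tested GH3 genes and, at the right, of *GH3.10*, *GH3.11* and *GH3.12* (horizontal axis), with 1 point for each array and the mean of 3 arrays as a line. The triangles (*hy5*) of *GH3.9* lie below its circles (wild type), and those of *GH3.3* lie above.

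Agreement between probes was examined where a gene had more than 1. Of the 36 members, 10 had several tested probes, and in all 10 these gave differences of the same sign. Their gap was 0.21 at the median and 0.40 at most, for *IAA14*. Close relatives among these families can share probe signal, which was not tested.

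Next to each other in the genome lie 3 pairs of members, with no other protein-coding gene between them in the gene table. The log2 ratio of the pair was taken within each array, which does not depend on the array's scaling factor. For *IAA3* over *IAA17* the ratio was -2.72, -2.75 and -2.76 in wild type and -2.15, -2.42 and -1.89 in *hy5*, so *IAA3* gained 0.59 relative to its neighbor. For *IAA14* over *IAA1* it was 0.48, 0.57 and 0.66 in wild type and -0.31, 0.10 and 0.15 in *hy5*, a change of -0.60. In both pairs the genotypes did not overlap. With normexp the changes were 0.35 and -0.39. For *IAA2* over *IAA7* the ratio was -0.83, -0.79 and -0.95 in wild type and -0.58, -1.15 and -1.40 in *hy5*, which overlapped. An exact two-sided permutation test gave p = 0.1 for the first 2 pairs, which is the smallest p that 3 against 3 arrays allow (0.15 adjusted over the 3 pairs), and p = 0.5 for *IAA2* and *IAA7*.

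The other genes of the pathway were taken by role. Over all genes tested, 26.3% rose and 26.6% fell. Of the 6 auxin receptors, only *AFB1* passed the test, with a rise of 0.30, and the other 5 were between -0.15 and 0.01. No receptor passed with the replicate number as a block, with median scaling, with no filter, by the methods' t-test, or when an array other than *hy5* replicate 1 was left out. Of 22 ARF genes, 15 were tested. In the main setting none rose, 6 fell and 9 did not pass the test. With normexp 1 rose and 8 fell, and by the methods' t-test after Benjamini-Hochberg adjustment 0 rose and 2 fell. Among those that fell in the main setting were *ARF9* (-0.75), *ARF1* (-0.59), *ARF11* (-0.53), *ARF5* (-0.51) and *ARF7* (-0.41). All 5 TOPLESS genes had lower signals on every *hy5* array than on any wild-type array, as did 31.7% of all genes tested, and 4 of them fell. With the replicate number as a block or no filter 3 fell, without wild type replicate 2 only 2 did, and without any other single array 3 did. All 5 fell with quantile normalization, cyclic loess, normexp, the mean of a gene's probes, the authors' deposited table and an intensity trend. By the methods' t-test, 5 fell unadjusted and 4 after Benjamini-Hochberg adjustment. *TPL* itself went from 6.27 ± 0.21 in wild type to 3.46 ± 0.183 in *hy5* (SD, n = 3 each), or -0.86 on the log2 scale (limma adjusted p = 0.000248, standard error 0.0875). *TPR4* had -0.23 (limma adjusted p = 0.0519). No receptor, ARF, TOPLESS or synthesis gene was called by limma, and the methods' t-test with its 2-fold limit called none of them either. At an unadjusted limma p under 0.05, 6329 of the 21590 genes tested were higher and 6425 lower. At that threshold the receptors had 1 higher and 0 lower, the ARFs 0 and 6, and the TOPLESS genes 0 and 5. The 10 tested synthesis genes had 2 and 3, near the shares of all genes.

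Auxin is made from tryptophan by TAA1 and its relatives and then by YUC enzymes. Of 14 such genes, 10 were tested. Again, 26.3% of all genes tested rose and 26.6% fell. *YUC7* (0.65) and *TAR2* (0.34) rose, and *YUC5* (-0.94), *YUC2* (-0.44) and *YUC4* (-0.40) fell, and with normexp 1 gene of this list rose and 7 fell. The count of rises was 0 without *hy5* replicate 3 and 1 without any other single array, and by the methods' t-test after Benjamini-Hochberg adjustment 0 rose and 0 fell. *TAA1* had 0.01 and *YUC8* had -0.04, and neither passed the test. Among 11 tested genes of a list on other ways of inactivating or releasing auxin, 5 rose and 0 fell (2 and 0 by the methods' t-test after Benjamini-Hochberg adjustment). *ILL6*, *ILL2* and *ILL3*, relatives of enzymes that release auxin from its amino acid conjugates, rose by 0.53, 0.49 and 0.43. AT1G14120, which has no symbol in the gene table, was called higher, with 2.98 ± 0.219 in *hy5* against 1.15 ± 0.0491 in wild type (SD, n = 3 each), a log2 difference of 1.37 (limma adjusted p = 5.65e-05).

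A further list held 3 GH3 genes that are not members, and all 3 rose, as did 26.3% of all genes tested. GH3 genes on neither list were not examined. *GH3.10*, or DWARF IN LIGHT 2, went from 0.709 ± 0.0707 to 1.68 ± 0.0298 (SD, n = 3 each), a log2 difference of 1.25 (limma adjusted p = 9.14e-05). *GH3.12*, or PBS3, an enzyme of salicylic acid synthesis, had 1.12 (limma adjusted p = 0.00024). *GH3.11*, or JAR1, which makes the active jasmonate conjugate, had 0.42 (limma adjusted p = 0.00701). The first 2 were called and the third was not.

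**Figure D4:**
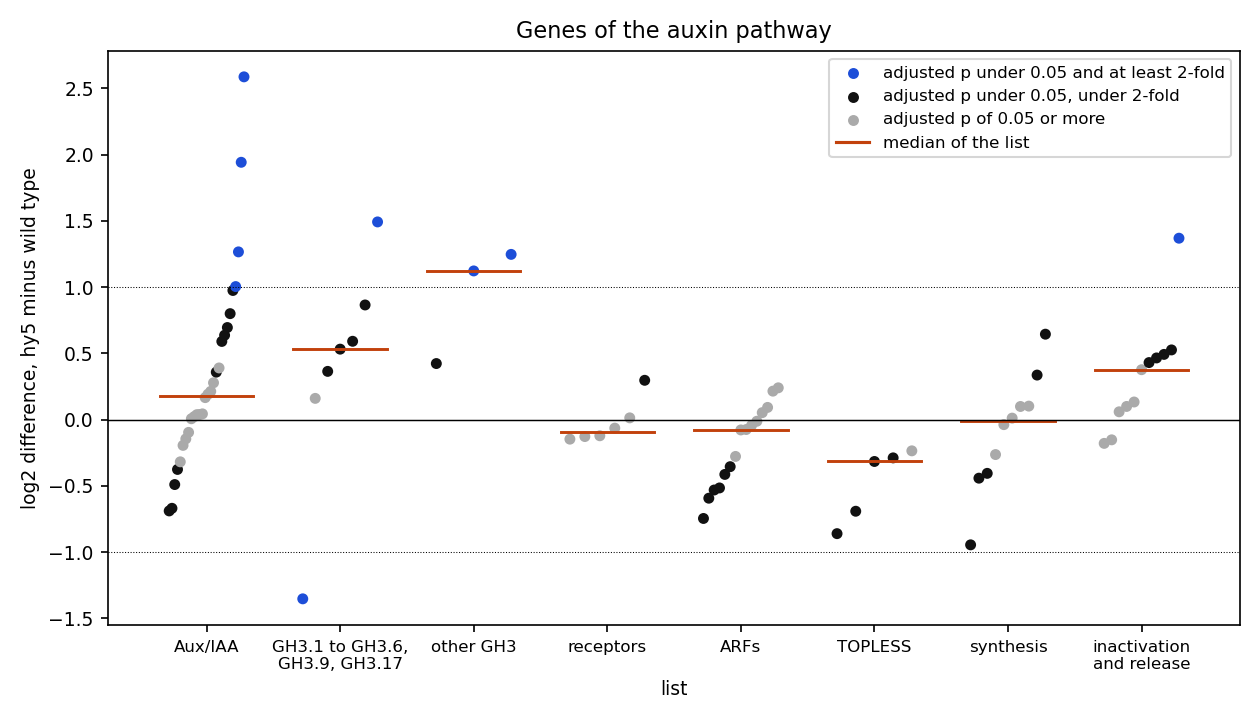
Log2 difference (*hy5* minus wild type, vertical axis) of each tested gene by list (horizontal axis), with the median of the list as a line and dotted lines at 2-fold. The median is 0.18 for Aux/IAA, 0.53 for the 7 GH3 members, -0.32 for the TOPLESS genes and -0.08 for the ARFs.

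The members were last set against all genes tested, each difference beside the mean signal of its own probe. The 6 called members lie past the 2-fold lines, and 11.4% of all genes tested met the same 2 criteria.

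**Figure D5:**
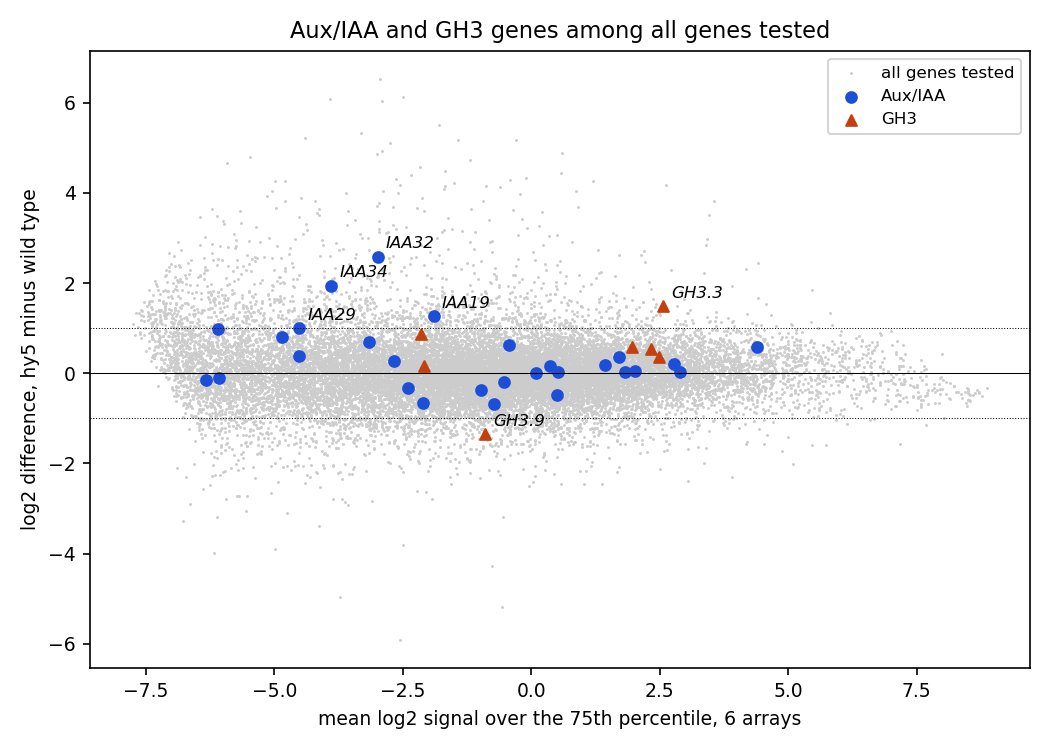
Log2 difference (*hy5* minus wild type, vertical axis) against mean log2 signal over 6 arrays (horizontal axis) for the 21590 genes tested (gray), the Aux/IAA genes (circles) and the GH3 genes (triangles). The 6 called members are named, and dotted lines mark 2-fold.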

How the data were processed

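The authors deposited the scanner output of 6 one-color arrays (Agilent Feature Extraction 10.7.3 in the submitters' processing notes), in which each spot has an intensity after background subtraction by the scanner software. Each entry of a second table that the authors deposited is a ratio, the intensity over the third quartile of its array, and served as an alternative.

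The processed signal was put on the log2 scale and set relative to the 75th percentile of each array's non-control spots. Spots of a probe were averaged, outlier flags removed 30 probes, and no spot was saturated. The test was limma 3.58.1 (R 4.3.3), with eBayes, two-sided p-values and Benjamini-Hochberg adjustment over 21590 genes. Precision is limited by the number of arrays. In simulated arrays with 21590 genes and 200 of them changed 2.5-fold, 182 were called, with 5 unchanged genes. The simulation used independent normal noise, upward changes only and no slide effect, so its counts need not hold for the real arrays.

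Gene names are those of the TAIR10.1 annotation, without its coordinates. The members, gene lists and groupings were chosen with earlier results of these data known. All 36 members are named, with values on every array for those called. Of each other pathway list, called genes and at most the 4 largest differences are named. *ARF7*, *TPR4*, *TAR2*, *TAA1*, *YUC8* and *ILL3* were added after their values were seen. Pairs were to be formed by protein identity. Adjacent genes were used instead, a choice made after seeing the data, because no protein sequences were at hand. Equal replicate numbers did not pair the arrays (correlations of deviations -0.025, -0.087 and 0.085).

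Alternatives covered scaling, background correction, the filter, the mean of a gene's probes, the authors' table, an intensity trend in eBayes, the methods' t-test (Welch's, on linear signals), the replicate number as a block, and leaving out single arrays. Normexp used the median spot signal.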

Additional observations from a re-analysis of the deposited data

How the results depend on the processing

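The 35 tested members gave 627 values over 18 alternatives. For 579 neither the direction nor the call changed, 12 were no longer called, 6 were newly called and 30 had the opposite sign. The call here includes the 2-fold limit. Members under that limit that kept their sign but gained or lost a rise or fall are among the 579.

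Normexp moved the median of all genes to -0.20. Its offset of 50 equals 0.0832 to 0.0935 of the 75th percentile on wild-type arrays and 0.0461 to 0.0495 on *hy5* arrays, which by construction lowers dim genes in *hy5* relative to wild type. It also replaced the processed signal by the median spot signal, and these changes were not tried apart. It called 529 genes and 1 Aux/IAA gene (*IAA32*) higher, with an Aux/IAA median of -0.012. The members that changed sign were *IAA1* (-0.073), *IAA5* (-0.38), *IAA6* (-0.53), *IAA20* (-0.0020), *IAA26* (-0.023), *IAA29* (-0.19), *IAA31* (-0.37) and *GH3.1* (-0.045).

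At any fold, the methods' t-test after Benjamini-Hochberg adjustment no longer passed *IAA5*, *IAA6*, *IAA9*, *IAA10*, *IAA18*, *IAA27*, *IAA32*, *IAA34* and *GH3.17*, and with the 2-fold limit it called 868 genes and 1 Aux/IAA gene higher. Without a filter, 3664 genes, 2 GH3 genes (*GH3.9* and *GH3.4*, the latter not well above background on any array) and 5 other pathway genes were called lower. Cyclic loess called 1 other pathway gene lower. With quantile normalization the Aux/IAA median was 0.15.

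Among members that did not pass the test, signs also changed under quantile normalization for *IAA2* (-0.0035), *IAA16* (-0.045), *IAA17* (-0.013) and *IAA33* (0.029), under cyclic loess for *IAA2* (-0.00050), *IAA30* (0.20) and *IAA33* (0.19), under median scaling for *IAA26* (-0.0036) and by the methods' t-test for *IAA26* (-0.00082). The cause was not tested.

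With each array left out in turn, 3 to 5 Aux/IAA genes and 1 to 2 GH3 genes were called higher (2 without wild type replicate 3), and 0 to 1 other pathway genes were called lower. The Aux/IAA median lay between 0.11 and 0.23. *IAA2* lay between -0.13 and 0.16, *IAA16* between -0.043 and 0.15, *IAA17* between -0.074 and 0.15, *IAA26* between -0.064 and 0.13, *IAA30* between -0.43 and 0.028 and *IAA33* between -0.33 and 0.12.

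The replicate number as a block gave 1420 genes higher and 1050 lower in limma, and no member changed its call, at 2-fold or at any fold. Signal over background limits *IAA6*, *IAA30*, *IAA33* and *GH3.4*, and the slides cannot be told apart from the genotypes.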
